A study of Mus musculus with 9 samples.

Results

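The late neutrophil maturation genes are 34 mouse genes for proteins that a neutrophil makes in the last steps of its development: proteins of the secondary (specific) and tertiary (gelatinase) granules, subunits of the NADPH oxidase, cytosolic and secreted proteins of the mature cell, and its surface receptors. They were chosen by name. Of the 34, 32 were measured, by 47 probe sets, among 18194 genes in all, and Retnlg and Fpr1 were not analysed here. A gene with more than 1 probe set (7 of the 32) was represented by the one with the highest mean over all 9 arrays.

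The leukemias came from mice of mixed C57/BL6 X 129 background, and freshly harvested bone marrow cells were put on 1 array per sample, 3 arrays in each of 3 groups. In the first 2 groups, primary leukemias driven by MLL-AF9, a fusion oncoprotein, carried homozygous floxed Af10 (the gene Mllt10, whose product is a partner of the histone methyltransferase DOT1L). They were transduced with the retroviral vector MSCV-IRES-tdTomato (MIT), and the cells were sorted and passed to secondary recipients. The vector also expressed Cre recombinase in the Af10 deleted leukemias (replicates 4, 5 and 6) and was empty in the Af10 floxed leukemias (replicates 4, 5 and 6), and both were sorted for tdTomato again before RNA preparation. The third group was primary leukemias transduced with Hoxa9 and Meis1 (here replicates 1 to 3), whose cells had no treatment before RNA preparation. The labels give neither the age of the mice nor whether each array stands for a separate primary leukemia. Only the deleted group carried Cre, so loss of Af10 and expression of Cre cannot be told apart, and in the comparisons with Hoxa9-Meis1 leukemias neither can the oncogene, the transplant generation, the vector and the sorting.

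Neutrophils mature in the bone marrow from promyelocytes, which fill the primary granules with myeloperoxidase and serine proteases, through myelocytes and metamyelocytes, which make the specific and then the gelatinase granules, to segmented cells that carry chemoattractant receptors and an NADPH oxidase ready to assemble. The genes of each step are switched on in turn, under transcription factors of the C/EBP family and PU.1, and granulocyte colony-stimulating factor signals through STAT3 in these cells. Acute myeloid leukemias stop this programme part of the way, and leukemia cells can still express part of it.

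All 4 probe sets of the targeted gene, Mllt10, were lower on every deleted array than on every floxed array, with log2 differences of -1.05 to -0.76 (limma adjusted p over all probe sets between 0.00105 and 0.0328). Which exons are floxed is not stated in the labels. Of the transduced genes, Hoxa9 was at 13.58 to 13.82 in Hoxa9-Meis1 leukemias by its representative probe set, above all MLL-AF9 arrays (7.35 to 12.52), and at 3.98 to 5.43 by its other probe set, below them. The 3 probe sets of Meis1 were lower on every Hoxa9-Meis1 array (4.54 to 7.15) than on any MLL-AF9 array (7.28 to 10.53), which goes against the label as far as they go. Which parts of the 2 genes the vectors carried is not stated in the labels. The arrays correlated at 0.98 to 0.99 within groups. A gauge of RNA integrity, the log2 signal at the 3′ end of Gapdh minus that at its 5′ end, was widest on floxed replicate 5 (1.03, against 0.44 to 0.81 elsewhere). Deleted replicate 6 and floxed replicate 5 are the arrays that results are also given without. Values are log2(intensity + 1), the figure after ± is the SD of a group's 3 arrays, SE belongs to the fitted difference, and intervals are 95% intervals for single genes. A fold is 2 to the power of a log2 difference on this scale. The word called means a limma adjusted p under 0.05, adjusted over all genes.

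All 32 genes read above the background gauge used here in all 3 kinds of leukemia. The lowest value of any of them on any array was 5.53, for Mmp8 in Hoxa9-Meis1 replicate 2. The probe sets of Y-linked genes, which gauge background here, lay between 2.97 and 4.71. Background can differ between probe sets, so the lowest values, such as that of Mmp8, do not by themselves show expression. The summed intensity of the 32 genes was 193128 to 244265 per array in deleted leukemias, 146727 to 225319 in floxed and 123433 to 198844 in Hoxa9-Meis1 leukemias, ranges that overlap. These are bulk samples, so fewer cells of a type and less RNA per cell cannot be told apart. The heat map of all members shows each gene relative to its own mean.

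**Figure D1:**
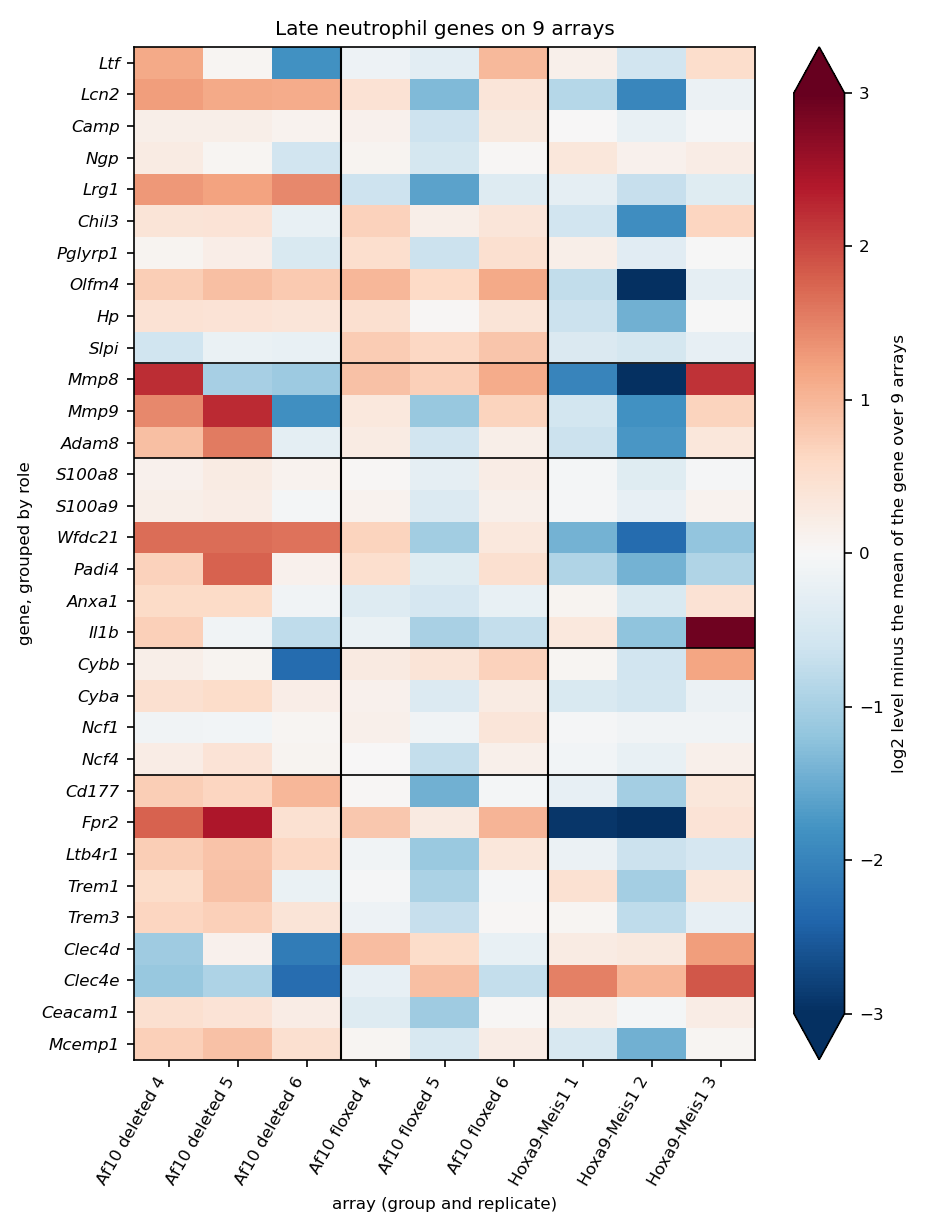
Each row is 1 of the 32 measured late neutrophil genes, grouped by role, and each column 1 of the 9 arrays. Colour gives the log2 difference from that gene's mean over the 9 arrays, on a scale from -3 to 3. Hoxa9-Meis1 replicate 2 holds the lowest value of its group in 31 of 32 genes, and floxed replicate 5 in 29 of 32.

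Deleted against floxed leukemias asks which of these genes differ after Cre deletion of Af10 in MLL-AF9 leukemia. Of the 32 genes, 2 rose (Lrg1 and Wfdc21), 1 fell (Slpi) and 29 did not pass the limma test. Over all genes tested, 3.22% were called higher and 3.63% lower (6.85% in all), so the count of 3 in 32 lies close to the background. Before adjustment, 11 of the 32 (34.4%) had a limma p under 0.05, 8 higher and 3 lower, against 22.1% of all genes. The median difference over the 32 genes was 0.42, against 0.06 over all genes, with 22 fitted above 0 and 10 below. Without floxed replicate 5 that median was 0.14, and without deleted replicate 4 or 5 it was 0.23 or 0.21. Without both deleted replicate 6 and floxed replicate 5 it was 0.28.

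Lrg1, which encodes the secreted leucine-rich alpha-2 glycoprotein stored in neutrophil granules, was at 10.56, 10.47 and 10.71 in deleted replicates 4, 5 and 6. It was at 8.65, 7.66 and 8.89 in floxed replicates 4, 5 and 6. Every deleted array lay above every floxed array. Lrg1 rose 4.53-fold (difference 2.18, SE 0.28, limma adjusted p = 0.0027) and was called under all 17 alternatives run for this comparison.

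Slpi, an inhibitor of serine proteases such as elastase, was the gene that went the other way. It was at 12.84, 13.24 and 13.22 in deleted leukemias, against 14.19, 14.05 and 14.27 in floxed leukemias. The groups did not overlap, and the spread was small in both (SD 0.22 and 0.11). The floxed values lie near the highest value of the data, 14.97, where a signal may be compressed. The fall of Slpi was 2.1-fold (difference -1.07, SE 0.14, limma adjusted p = 0.00299), and it was also called under all 17 alternatives.

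Wfdc21, a small secreted protein with a whey acidic protein domain, was at 13.53, 13.51 and 13.47 in deleted leukemias, an SD of 0.03. In floxed leukemias it was at 12.50, 10.81 and 12.15, with replicate 5 the lowest. It rose 3.21-fold (difference 1.68, SE 0.42, limma adjusted p = 0.0452). This call was lost under 10 of 17 alternatives. Among them were leaving out any deleted array (limma adjusted p from 0.101 to 0.119), floxed replicate 5 (difference 1.18, limma adjusted p = 0.0878), floxed replicate 6 (0.061) or Hoxa9-Meis1 replicate 1 (0.0722). Without both deleted replicate 6 and floxed replicate 5 the limma adjusted p was 0.153.

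**Figure D2:**
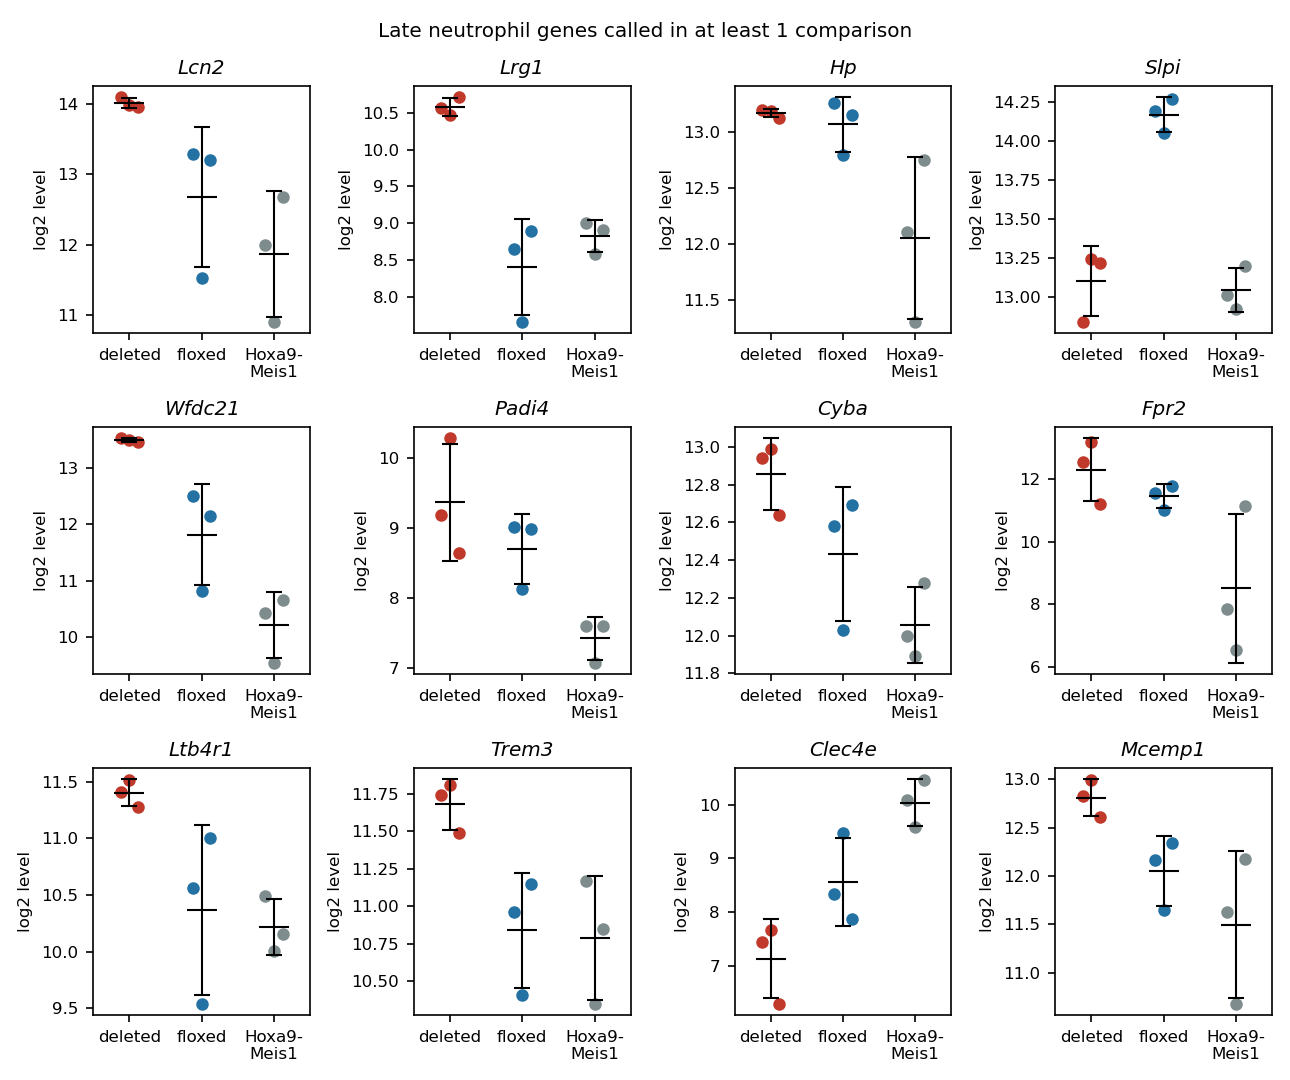
Points are the log2(intensity + 1) of 1 gene on 1 array for the 12 late neutrophil genes called in at least 1 comparison, by group, with the mean and SD of 3 arrays. For Lrg1 the 3 deleted leukemias lie between 10.47 and 10.71 and the other 6 arrays between 7.66 and 9.0, and for Slpi the 3 floxed leukemias lie at 14.05 or above.

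To set letters beside these values, the 250 bases before the start of the gene are shown for Lrg1 and Slpi, for Clec4e, the gene called lower against Hoxa9-Meis1 leukemias below, and for Fpr2, which had the largest fitted difference of any member. They are written 5′ to 3′ on the gene's strand, from RefSeq on build GRCm38.p6, with capitals marking matches to any of 3 motifs searched on both strands: TTGCNNAA (C/EBP type), GAGGAAGT (PU.1 type) and TTCNNNGAA (STAT type). Lrg1 lies on the minus strand at chr17:56121947-56122196 and Slpi on the minus strand at chr2:164356508-164356757. Clec4e lies on the minus strand at chr6:123289872-123290121 and Fpr2 on the plus strand at chr17:17887574-17887823.
Lrg1: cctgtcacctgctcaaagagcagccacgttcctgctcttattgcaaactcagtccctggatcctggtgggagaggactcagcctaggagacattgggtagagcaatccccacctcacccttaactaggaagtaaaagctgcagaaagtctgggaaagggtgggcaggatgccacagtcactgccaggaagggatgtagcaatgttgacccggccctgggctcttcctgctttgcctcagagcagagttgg
Slpi: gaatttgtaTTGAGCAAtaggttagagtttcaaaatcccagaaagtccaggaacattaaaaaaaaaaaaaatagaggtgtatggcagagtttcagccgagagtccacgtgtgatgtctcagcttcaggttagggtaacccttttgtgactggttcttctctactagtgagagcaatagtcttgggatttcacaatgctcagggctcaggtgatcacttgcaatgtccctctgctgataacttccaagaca
Clec4e: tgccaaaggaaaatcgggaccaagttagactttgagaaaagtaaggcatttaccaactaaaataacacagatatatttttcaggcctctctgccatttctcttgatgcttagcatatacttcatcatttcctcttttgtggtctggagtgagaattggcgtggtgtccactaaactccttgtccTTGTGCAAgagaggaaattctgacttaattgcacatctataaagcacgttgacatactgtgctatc
Fpr2: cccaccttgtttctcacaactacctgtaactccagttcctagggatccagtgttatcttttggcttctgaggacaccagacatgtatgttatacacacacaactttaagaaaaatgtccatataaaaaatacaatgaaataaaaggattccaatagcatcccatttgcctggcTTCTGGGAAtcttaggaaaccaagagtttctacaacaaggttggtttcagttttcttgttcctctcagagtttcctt

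The C/EBP-type letters begin at -241 in the Slpi window and at -66 in the Clec4e window, counted from the start of the gene, and the STAT-type letters at -77 in the Fpr2 window. The Lrg1 window has no match to the 3 motifs. Windows were given for 29 of the 34 named genes, and 10 of these 29 (34.5%) hold the C/EBP-type letters: Adam8, Anxa1, Clec4e, Lcn2, Ltf, Mmp8, Ngp, Retnlg, S100a9 and Slpi. Of all 32851 windows in the table, which can hold several per gene, 9.56% hold them. The PU.1-type letters stand in 3 of 29 (10.3%, against 2.44% of all windows) and the STAT-type letters in 4 of 29 (13.8%, against 7.02%). A match describes letters and says nothing of binding.

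By role, the specific granule proteins gave 1 call up (Lrg1) and 1 down (Slpi) among 10 genes after deletion, with a median difference of -0.04. Camp, the antimicrobial cathelicidin, averaged 14.26 ± 0.05 in deleted and 14.04 ± 0.49 in floxed leukemias. Ngp, a cystatin-like granule protein, averaged 13.64 ± 0.43 and 13.60 ± 0.35. The fitted difference of Ngp was 0.03 with an interval from -0.49 to 0.56. Camp and Ngp lie near the highest value of the data, 14.97, where a signal may be compressed. The interval therefore does not bound the change of the RNA. Lcn2, which sequesters bacterial iron carriers, was at 14.10, 13.99 and 13.96 in deleted leukemias and at 13.29, 11.52 and 13.21 in floxed leukemias. The groups did not overlap for Lcn2, yet the difference of 1.34 (interval 0.16 to 2.53) missed the threshold (limma adjusted p = 0.173). Ltf, for the iron-binding lactoferrin, ran from 10.28 to 13.24 among deleted leukemias alone, with replicate 6 the lowest.

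The 3 proteases of the gelatinase granule and the cell surface were not called, and their levels were uneven within groups. Mmp8, the neutrophil collagenase, was at 10.76, 7.54 and 7.46 in deleted and at 9.43, 9.25 and 9.65 in floxed leukemias. Mmp9, the gelatinase itself, was at 11.38, 12.19 and 8.11 in deleted and at 10.26, 8.80 and 10.62 in floxed leukemias. Adam8, a membrane protease, was at 9.48, 10.14 and 8.29 in deleted and at 8.83, 8.0 and 8.76 in floxed leukemias. All 3 were lowest in deleted replicate 6 among the deleted leukemias, and the groups overlapped for each. The interval of the Mmp8 difference ran from -3.74 to 2.03, too wide to place it on either side of 0.

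Among the cytosolic and secreted proteins 6 were measured, all fitted above 0, and Wfdc21 was the one called. S100a8 and S100a9, the subunits of calprotectin, which lie side by side on chromosome 3, were at 14.42 ± 0.08 and 14.55 ± 0.15 in deleted leukemias. They were at 14.25 ± 0.24 and 14.40 ± 0.31 in floxed leukemias. The interval of the difference was -0.17 to 0.51 for S100a8 and -0.24 to 0.55 for S100a9. Both lie near the highest value of the table, 14.97, where a signal may be compressed, so the intervals do not bound the change of the RNA. Anxa1, a mediator that limits neutrophil recruitment, was at 12.68 ± 0.40 and 11.95 ± 0.15, and the groups did not overlap (limma adjusted p = 0.134).

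The NADPH oxidase, which makes superoxide in the phagosome, had 0 of 4 subunit genes called. Of its membrane subunits, Cybb was at 12.16, 12.07 and 9.67 in deleted and at 12.25, 12.37 and 12.68 in floxed leukemias. Every deleted array lay below every floxed array, with deleted replicate 6 the lowest, and the fitted difference was -1.14 (interval -2.61 to 0.33). Cyba, the other membrane subunit, was at 12.86 ± 0.19 and 12.43 ± 0.35. Of the cytosolic subunits, Ncf1 was at 12.84 ± 0.09 and 13.02 ± 0.24 and Ncf4 at 12.71 ± 0.17 and 12.29 ± 0.47.

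Among the 9 measured surface receptors 0 were called after deletion, and the median difference was 0.84. An unadjusted p under 0.05 was found in 6 of them, 4 higher and 2 lower, against 22.1% of all genes. Cd177, a surface protein of neutrophils, was at 12.91, 12.82 and 13.16 in deleted and at 12.19, 10.73 and 12.10 in floxed leukemias (limma adjusted p = 0.11). Every deleted array lay above every floxed array for Cd177, and likewise for Ltb4r1, Trem3, Ceacam1 and Mcemp1. Their limma adjusted p was 0.092 for Ltb4r1, the leukotriene B4 receptor, 0.0769 for Trem3, an activating receptor, and 0.0746 for Ceacam1, an adhesion receptor. It was 0.233 for Mcemp1, a myeloid membrane protein. Without floxed replicate 6, Ceacam1 and Ltb4r1 were called higher (differences 1.11 and 1.36, limma adjusted p = 0.0203 and 0.0302). All 8 probe sets of Ceacam1 were fitted higher in deleted leukemias, but 0 passed over all probe sets, and several of them, by the suffix of their names, may hybridise to related genes too.

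The neighbouring lectin receptor genes Clec4d and Clec4e on chromosome 6, whose products sense mycobacterial glycolipids and damaged cells, both had a fitted difference of -1.43. Clec4e was at 7.44, 7.66 and 6.29 in deleted and at 8.34, 9.47 and 7.87 in floxed leukemias, without overlap (limma adjusted p = 0.106). Clec4d was at 9.29, 10.48 and 8.25 and at 11.28, 10.90 and 10.13, with overlap (limma adjusted p = 0.157). Neither was called, and Clec4d was without deleted replicate 5 (difference -2.0, limma adjusted p = 0.0491). In all, 9 of the 32 genes lay higher on every deleted than on every floxed array and 3 lower, against 15.1% and 10.7% of all genes.

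**Figure D3:**
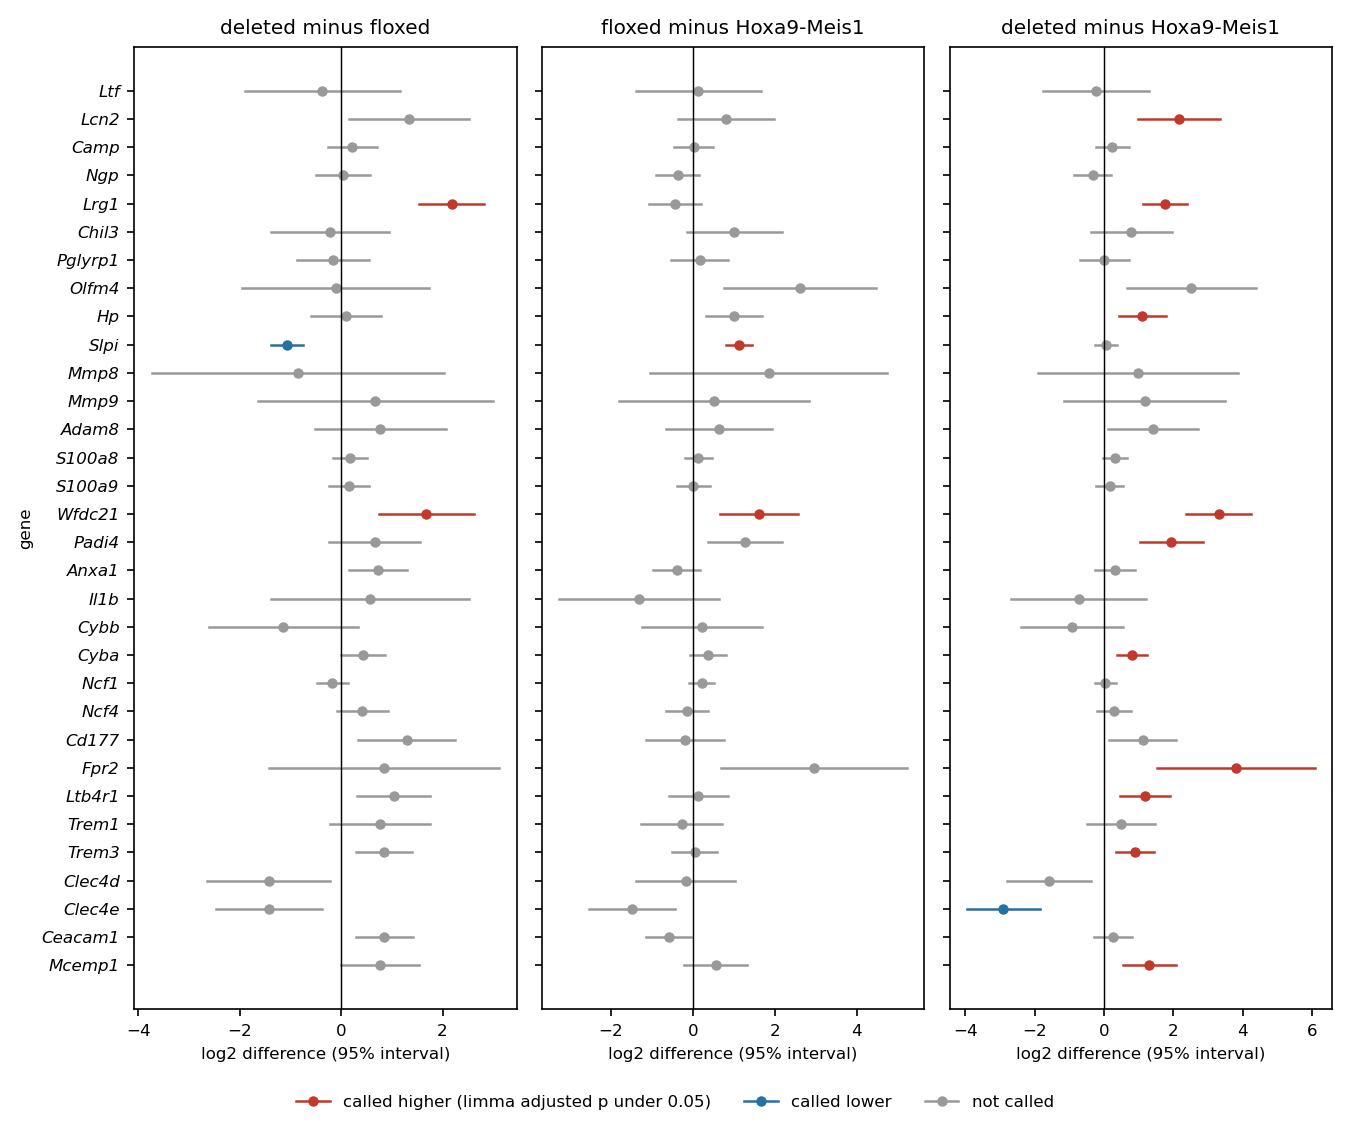
Each point is the fitted log2 difference of 1 late neutrophil gene with its 95% interval, in a panel for each comparison (deleted minus floxed, then floxed and deleted each minus Hoxa9-Meis1). Red points were called higher, blue lower and grey not called: 2, 2 and 10 genes are red and 1, 0 and 1 blue.

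Deleted against Hoxa9-Meis1 leukemias gave more calls: 10 of 32 genes were higher in deleted leukemias and 1 was lower. Over all genes 9.27% were called higher and 6.23% lower (15.5% in all). Before adjustment, 15 of the 32 (46.9%) had a limma p under 0.05, 13 higher and 2 lower, against 28.7% of all genes. The median difference was 0.64 over the 32 genes and 0.05 over all genes, with 26 fitted above 0 and 6 below. The comparison shares the deleted arrays with the one above, so its values do not stand apart from those. Hoxa9-Meis1 replicate 2 weighs on the median, which was 0.19 without it. It was 0.37 or 0.32 without deleted replicate 4 or 5.

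Wfdc21 was at 10.42, 9.54 and 10.66 in Hoxa9-Meis1 leukemias, below every MLL-AF9 array, and was 9.83-fold higher in deleted leukemias (difference 3.30, SE 0.42, limma adjusted p = 0.00118). Lrg1 was at 9.0, 8.58 and 8.90 there and was 3.38-fold higher in deleted leukemias (difference 1.76, SE 0.28, limma adjusted p = 0.00393). Padi4, the enzyme that citrullinates histones when neutrophils release chromatin traps, was at 9.18, 10.28 and 8.64 in deleted, at 9.01, 8.13 and 8.98 in floxed and at 7.60, 7.08 and 7.60 in Hoxa9-Meis1 leukemias. It was 3.83-fold higher in deleted than in Hoxa9-Meis1 leukemias (difference 1.94, SE 0.40, limma adjusted p = 0.0123). These 3 calls held under all 16 alternatives run for this comparison. That of Padi4 held narrowly, at a limma adjusted p of up to 0.0499, against up to 0.0192 for Lrg1 and 0.00673 for Wfdc21.

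Clec4e went the other way, at 10.08, 9.58 and 10.45 in Hoxa9-Meis1 leukemias, above all 6 MLL-AF9 arrays. It was 7.51-fold lower in deleted leukemias (difference -2.91, SE 0.46, limma adjusted p = 0.00378) and was called under all 16 alternatives. Clec4d, its neighbour, was at 10.59, 10.64 and 11.60 there, with a difference of -1.60 that missed the threshold (limma adjusted p = 0.0787). Without deleted replicate 5, Clec4d was called lower as well (difference -2.17, limma adjusted p = 0.0213).

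The remaining calls against Hoxa9-Meis1 leukemias were less firm, and each was lost under some alternatives. Among granule proteins, Lcn2 was at 12, 10.90 and 12.68 in Hoxa9-Meis1 leukemias and was 4.45-fold higher in deleted leukemias (SE 0.52 log2, limma adjusted p = 0.0248). Hp, for the haemoglobin scavenger haptoglobin, was at 13.19, 13.18 and 13.12 in deleted, at 13.25, 12.79 and 13.15 in floxed and at 12.11, 11.31 and 12.75 in Hoxa9-Meis1 leukemias. Hp was 2.15-fold higher in deleted leukemias (SE 0.30 log2, limma adjusted p = 0.0397). The call of Lcn2 was lost under 5 of 16 alternatives, without any deleted array or Hoxa9-Meis1 replicate 1 or 2 (limma adjusted p from 0.0563 to 0.0774). That of Hp was lost under 10, among them the same 5 arrays (limma adjusted p from 0.0741 to 0.104) and floxed replicate 4 or 6 (0.0516 and 0.0571).

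Among oxidase subunits, Cyba was at 12.94, 12.99 and 12.64 in deleted, at 12.58, 12.03 and 12.69 in floxed and at 12, 11.89 and 12.28 in Hoxa9-Meis1 leukemias. Cyba was 1.74-fold higher in deleted than in Hoxa9-Meis1 leukemias (SE 0.19 log2, limma adjusted p = 0.0243), and the call was lost under 4 of 16 alternatives: without deleted replicate 4 or 5 or Hoxa9-Meis1 replicate 1 or 2 (limma adjusted p from 0.0778 to 0.0907). Ncf1, by contrast, had an interval of -0.26 to 0.34 in this comparison.

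Fpr2, the receptor for formyl peptides of bacteria, had the largest difference and one of the widest spreads. It was at 12.54, 13.18 and 11.21 in deleted and at 11.56, 11.03 and 11.79 in floxed leukemias. In Hoxa9-Meis1 leukemias it was at 7.84, 6.54 and 11.16, so replicate 3 stood within the range of the floxed arrays and the other 2 far below it. It was 13.9-fold higher in deleted than in Hoxa9-Meis1 leukemias (difference 3.80, SE 1.01, limma adjusted p = 0.0343), a call lost under 6 of 16 alternatives. Without deleted replicate 4 or 5 or Hoxa9-Meis1 replicate 1 or 2 its limma adjusted p was 0.0979 to 0.118. Fpr2 lies next to Fpr1 on chromosome 17.

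Of the other receptors, Ltb4r1 was at 11.41, 11.52 and 11.28 in deleted, at 10.56, 9.54 and 11 in floxed and at 10.49, 10.01 and 10.16 in Hoxa9-Meis1 leukemias. Trem3 was at 11.74, 11.81 and 11.49, at 10.96, 10.41 and 11.15, and at 11.17, 10.35 and 10.85 in the same order of groups. Mcemp1 was at 12.83, 12.99 and 12.61, at 12.17, 11.65 and 12.34, and at 11.63, 10.68 and 12.18. For each of the 3, the deleted arrays lay above all the other arrays. Against Hoxa9-Meis1 leukemias they were 2.27-fold, 1.85-fold and 2.49-fold higher (limma adjusted p = 0.0366, 0.0379 and 0.0321), and each call was lost under 7 of 16 alternatives. That of Ltb4r1 was lost without any 1 of these 6 arrays (limma adjusted p from 0.0662 to 0.12). That of Trem3 was lost without any deleted array, floxed replicate 4 or Hoxa9-Meis1 replicate 2 or 3 (0.0506 to 0.121 by limma), and that of Mcemp1 without any deleted array or Hoxa9-Meis1 replicate 1 or 2 (0.0539 to 0.0956). Leaving out deleted replicate 4 or 5 cut the calls from 10 to 3, to Lrg1, Padi4 and Wfdc21. Without deleted replicate 6 there were 5 calls, and without Hoxa9-Meis1 replicate 1 or 2 there were 4. In all, 15 of 32 genes lay higher on every deleted than on every Hoxa9-Meis1 array and 2 lower, against 21.7% and 13.2% of all genes.

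Floxed against Hoxa9-Meis1 leukemias compares the MLL-AF9 leukemia that kept Af10 with the other leukemia. Here 2 of 32 genes were higher, Slpi and Wfdc21, and 0 lower. An unadjusted p under 0.05 by limma was found in 8 (25%), against 23.9% of all genes. Over all genes 5.58% were called higher and 3.31% lower (8.89% in all), so the members lie close to the background. The median difference was 0.16 over the 32 genes and -0.01 over all genes. It turned to -0.01 without Hoxa9-Meis1 replicate 2, and was 0.36 without floxed replicate 5 and 0.07 without floxed replicate 6. In this comparison 5 genes lay higher on every floxed array and 2 lower, against 15.4% and 12.1% of all genes.

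Slpi was at 13.01, 12.92 and 13.20 in Hoxa9-Meis1 leukemias and was 2.19-fold higher in floxed leukemias (difference 1.13, SE 0.14, limma adjusted p = 0.00213), under every one of 16 alternatives. Slpi was at 13.10 ± 0.22 in deleted and 13.04 ± 0.14 in Hoxa9-Meis1 leukemias, with an interval of the difference from -0.26 to 0.38. Wfdc21 was 3.06-fold higher in floxed than in Hoxa9-Meis1 leukemias (difference 1.61, SE 0.42, limma adjusted p = 0.0451), and that call was lost under 10 of 16 alternatives. It was lost without any deleted array (limma adjusted p from 0.0596 to 0.0726), floxed replicate 4 or 6 (0.114 and 0.116) or Hoxa9-Meis1 replicate 1 or 2 (0.107 and 0.145). Padi4, with a difference of 1.28 (limma adjusted p = 0.0835), was called higher without deleted replicate 5 (0.0319).

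Several genes had a wide spread in Hoxa9-Meis1 leukemias. Olfm4, a glycoprotein of specific granules, was at 12.22, 12.40 and 12.27 in deleted and at 12.49, 12.09 and 12.63 in floxed leukemias. In Hoxa9-Meis1 leukemias Olfm4 was at 10.76, 7.36 and 11.22. All 6 MLL-AF9 arrays lay above the 3 others, but the differences of 2.52 and 2.62 missed the threshold (limma adjusted p = 0.0714 and 0.083). Without Hoxa9-Meis1 replicate 2, the difference of floxed against Hoxa9-Meis1 leukemias was 1.42 (limma adjusted p = 0.00886), and that of deleted leukemias was 1.31 (limma adjusted p = 0.00692). Without replicate 3 it was 3.23 for deleted leukemias (limma adjusted p = 0.0293). Again without replicate 3 of that group, Chil3, Fpr2, Hp and Olfm4 were all called higher in floxed leukemias, Fpr2 by 4.27 (limma adjusted p = 0.00469). Without floxed replicate 5, and likewise without that array and deleted replicate 6 together, Clec4e was called lower in floxed than in Hoxa9-Meis1 leukemias (limma adjusted p = 0.0405 and 0.0129), and Ceacam1 was without floxed replicate 6 (0.0488 by limma). Il1b, the cytokine interleukin-1 beta, ran from 6.68 to 10.80 within the Hoxa9-Meis1 group.

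Within each group 1 array was low in nearly all of these genes. Hoxa9-Meis1 replicate 2 held the lowest value of its group in 31 of 32 genes (96.9%), against 26.6% of all genes. Floxed replicate 5 held it in 29 (90.6%, against 45.5%) and deleted replicate 6 in 27 (84.4%, against 34.9%). Hoxa9-Meis1 replicate 3 was the highest of its group in 24 (75% against 31.9%). Genes on the same array share its cells and its RNA, so these counts describe 9 samples and not 32 separate events. The 3 low arrays were not alike in the Gapdh gap, which was 0.77 in Hoxa9-Meis1 replicate 2, 1.03 in floxed replicate 5 and 0.60 in deleted replicate 6, and the part of RNA integrity in these values was not tested.

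The spread among replicates was accordingly wider for these genes than for the table as a whole. The median SD over 3 arrays was 0.21 in deleted, 0.42 in floxed and 0.51 in Hoxa9-Meis1 leukemias, against 0.16, 0.19 and 0.15 over all genes. An SD above 1 was found in 6 of the 32 genes in deleted leukemias and in 7 in Hoxa9-Meis1 leukemias (18.8% and 21.9%), against 1.06% and 1.09% of all genes, and in 1 in floxed leukemias (3.12%, against 0.506%). The median difference from each gene's mean was 0.56, 0.42 and 0.07 in deleted replicates 4, 5 and 6. It was 0.13, -0.50 and 0.26 in floxed replicates 4, 5 and 6, and -0.13, -0.68 and 0.13 in Hoxa9-Meis1 replicates 1, 2 and 3. By this measure deleted replicate 6 lay below floxed replicates 4 and 6 and below Hoxa9-Meis1 replicate 3, so the groups overlapped.

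**Figure D4:**
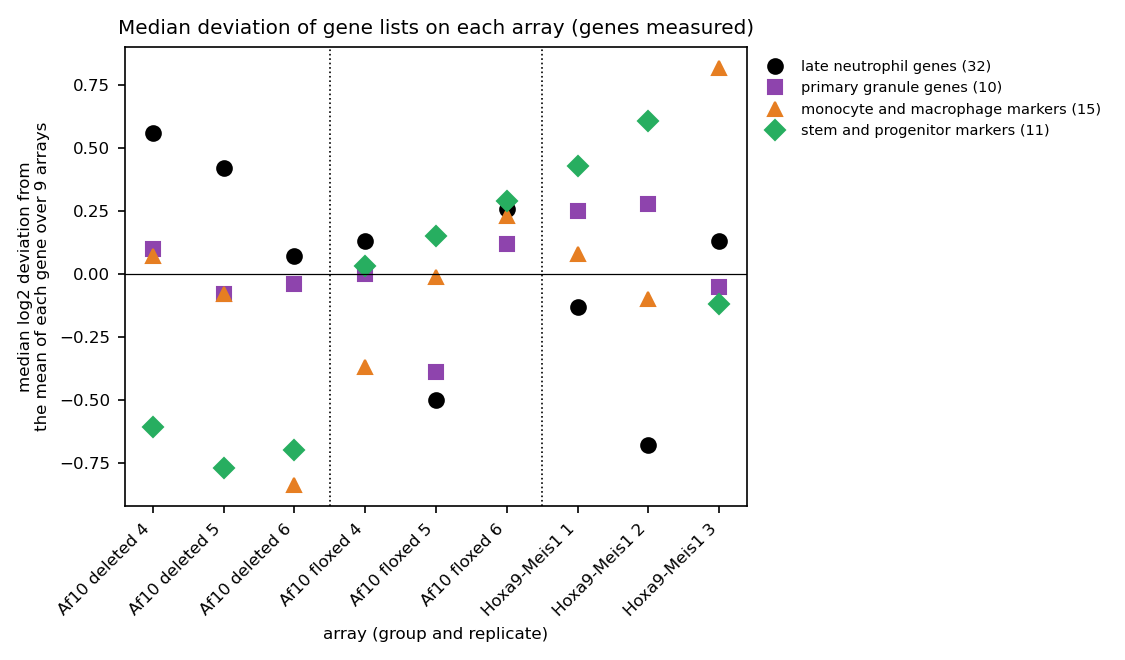
Each point is 1 array, and the vertical axis is the median over a gene list of the log2 difference from each gene's mean over 9 arrays, for 32 late neutrophil, 10 primary granule, 15 monocyte and macrophage, and 11 stem and progenitor genes. The late neutrophil median runs from -0.68 in Hoxa9-Meis1 replicate 2 to 0.56 in deleted replicate 4, and the stem and progenitor median lies between -0.77 and -0.61 in the 3 deleted leukemias.

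Other genes of neutrophil maturation, from a list of 34 of which 30 were measured, gave 6 rises (20%) and 0 falls after deletion. Of all genes, 3.22% were called higher and 3.63% lower. The median difference of the list was 0.42, against 0.06 over all genes. Cxcr2, the chemokine receptor that draws mature neutrophils out of the marrow, was at 10.41, 10.92 and 10.03 in deleted and at 8.65, 8.09 and 8.93 in floxed leukemias, and rose 3.72-fold (limma adjusted p = 0.00398). Fcgr4, an activating receptor for antibody, was at 11.37, 11.43 and 11.23 in deleted and at 9.68, 8.80 and 9.78 in floxed leukemias, and rose 3.8-fold (limma adjusted p = 0.00398). Deleted and floxed arrays did not overlap for either gene. Fcgr3, another antibody receptor, rose 1.84-fold, Dgat2, which makes triglycerides, 3.36-fold, the glycogen phosphorylase gene Pygl 2.01-fold and Alox5, which starts leukotriene synthesis, 3.33-fold. The count was 4 without floxed replicate 5, with or without deleted replicate 6, and 4 without deleted replicate 4. It was 8 without floxed replicate 6. Fcgr4 was called under all 17 alternatives. The call of Fcgr3 was lost without deleted replicate 4 (limma adjusted p = 0.0598) or floxed replicate 5 (0.0625), and that of Dgat2 without deleted replicate 6 (0.0528). That of Alox5 was lost without deleted replicate 4 or 5 or floxed replicate 5 (limma adjusted p from 0.0558 to 0.0876). With the replicate number as a block 3 were called.

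Against Hoxa9-Meis1 leukemias, 11 of these 30 genes (36.7%) were higher in deleted leukemias and 0 lower, against 9.27% and 6.23% of all genes. In floxed leukemias 2 (6.67%) were higher and 1 lower, against 5.58% and 3.31%, so these counts lie close to the background. The 2 higher calls became 5 without Hoxa9-Meis1 replicate 3 and 4 without floxed replicate 5. They became 1 without floxed replicate 4 or 6 or Hoxa9-Meis1 replicate 1 or 2. Stfa2l1, a stefin-type protease inhibitor gene, was at 13.49, 14.03 and 13.19 in deleted and at 13.80, 12.79 and 13.88 in floxed leukemias, but at 5.43, 5.26 and 9.55 in Hoxa9-Meis1 leukemias. It was higher by 6.82 in deleted and by 6.75 in floxed leukemias (limma adjusted p = 0.00225 and 0.00419). Fcgr4 was higher by 2.72 in deleted leukemias, and C5ar1, the receptor for the complement fragment C5a, by 2.09 (limma adjusted p = 0.0372, lost without any deleted array, floxed replicate 4 or 6 or Hoxa9-Meis1 replicate 1, at up to 0.112). Cd33, an inhibitory lectin, was higher by 1.40 in floxed leukemias (limma adjusted p = 0.0174, lost without floxed replicate 4 or 6 or Hoxa9-Meis1 replicate 1 or 2, at up to 0.0707). Csf3r, the receptor for granulocyte colony-stimulating factor, was lower in floxed leukemias (difference -1.27, limma adjusted p = 0.0404), a call lost without any 1 array but floxed replicate 6, at up to 0.133.

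The list of primary granule genes stands for the earlier promyelocyte step and holds some genes of other proteins too, such as Igfbp4. It gave 1 rise and 1 fall among 10 measured after deletion. The shares over all genes were 3.22% and 3.63%, and the median difference of the list was 0.03. The genes of myeloperoxidase and of serine proteases, Mpo, Elane, Prtn3 and Ctsg, were not called (differences -0.02, 0.39, 0.39 and 0.07). Igfbp4, a binding protein of insulin-like growth factors, rose 2.14-fold (limma adjusted p = 0.0143, and 0.0524 without floxed replicate 5). Cst7, a cystatin, fell by 0.99 on the log2 scale (limma adjusted p = 0.0438), and its call was lost without any deleted array, floxed replicate 4 or 6 or Hoxa9-Meis1 replicate 1 or 2, at up to 0.134. Cst7 was the 1 call in each comparison with Hoxa9-Meis1 leukemias, with a difference of -1.04 in floxed leukemias (lost without floxed replicate 5 or 6 or Hoxa9-Meis1 replicate 1 or 2, at up to 0.115) and of -2.04 in deleted leukemias. The array that was lowest in late genes among Hoxa9-Meis1 leukemias, replicate 2, was the lowest in 1 of 10 genes of this list, and replicate 3 in 9 of 10. The shares of all genes were 26.6% and 41%. Floxed replicate 5 and deleted replicate 6, also low in late genes, were the lowest of their groups in 8 and 5 of 10. For these 2 arrays the shares of all genes were 45.5% and 34.9%.

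Of 14 regulators of granulocyte transcription, 0 were called higher and 1 lower after deletion, against 3.22% and 3.63% of all genes. Before adjustment, 9 of the 14 had a limma p under 0.05, against 22.1% of all genes. The median difference was 0.59, against 0.06 over all genes, with 11 fitted above 0 and 3 below. On every deleted array 7 lay higher than on every floxed array and 2 lower, against 15.1% and 10.7% of all genes. Irf8, a factor that favours monocytes over granulocytes, was at 9.28, 9.69 and 9.07 in deleted and at 11.27, 10.78 and 11.62 in floxed leukemias, and fell 3.67-fold (limma adjusted p = 0.0151, and 0.0538 without deleted replicate 4). Against Hoxa9-Meis1 leukemias, Trib1, which promotes degradation of C/EBP alpha, was lower in both MLL-AF9 groups, with differences of -2.20 in floxed and -1.89 in deleted leukemias, under all 16 alternatives each. Cebpa, the gene of C/EBP alpha itself, was lower in floxed leukemias (difference -1.13, limma adjusted p = 0.0189, lost without floxed replicate 5 or 6 or Hoxa9-Meis1 replicate 1, at up to 0.0755). In deleted leukemias Irf8 was lower (difference -1.87), and Klf5, a transcription factor, was higher by 1.89 (limma adjusted p = 0.0168, lost without deleted replicate 4 or Hoxa9-Meis1 replicate 1 or 2, at up to 0.0592).

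Markers of other cell types were looked at on the same arrays. Their counts after deletion are to be set against 3.22% of all genes called higher and 3.63% lower. Of 15 monocyte and macrophage markers, 2 rose (F13a1 and C1qc) and 1 fell (Ccr2, 3.27-fold) after deletion. Their summed intensity was 15540 to 21401 per array in deleted, 19442 to 25990 in floxed and 21224 to 52712 in Hoxa9-Meis1 leukemias. Deleted replicate 6, low in late neutrophil genes, had the lowest sum of these markers and Hoxa9-Meis1 replicate 3 the highest. Of 11 stem and progenitor markers, 6 fell and 0 rose after deletion. Among them were the receptor gene Flt3, which fell by 4.56 on the log2 scale, and Cd34, which fell by 3.57, both under all 17 alternatives. The calls of Kit, Meis1 and Cd48 were lost under 11, 8 and 5 of 17. Each was lost without floxed replicate 5, among others (limma adjusted p from 0.105 to 0.12). The sums of the 11 markers were 11968 to 13909 in deleted, 29956 to 32063 in floxed and 27703 to 34308 in Hoxa9-Meis1 leukemias. Of each sum, 62.8% to 79% was 1 gene, Mycn, whose call was lost when its probe sets were averaged (difference -0.27, limma adjusted p = 0.135). Without Mycn the sums were 2508 to 3192, 9438 to 11767 and 7368 to 12764.

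Of 10 T and NK cell markers, 4 rose after deletion (Cd3e, Klrd1, Gzma and Thy1), against 3.22% of all genes higher and 3.63% lower. Their summed intensity was 1830 to 3955 in deleted, 2393 to 5067 in floxed and 2411 to 5020 in Hoxa9-Meis1 leukemias, of which 33.7% to 85.3% was Nkg7, a gene that the primary granule list holds too. Without Nkg7 the sums were 1116 to 1213, 669 to 744 and 776 to 947, higher on every deleted array than on any other. The floxed means of Klrd1 and Gzma lay at background, which understates these 2 folds. Erythroid markers (8) gave 0 calls and 0 at an unadjusted p under 0.05 by limma after deletion. Such a p by limma was found in 8 of 10 T and NK cell, 7 of 15 monocyte and macrophage and 7 of 11 stem and progenitor markers. The share over all genes was 22.1%. Of 9 B cell markers 1 was called lower and 6 had such a p by limma, with 7 fitted above 0 and 2 below. Of 10 eosinophil, basophil and mast cell markers 0 were called, with 2 at such a p by limma. Against Hoxa9-Meis1 leukemias, 4 of these last 10 were lower in each MLL-AF9 group. Of all genes, 3.31% were lower in floxed and 6.23% in deleted leukemias. The sum of these 10 markers was 5744 to 18076 in Hoxa9-Meis1 leukemias against 2557 to 3815 on the MLL-AF9 arrays. In deleted against Hoxa9-Meis1 leukemias, 9.27% of all genes were called higher and 6.23% lower. There 4 of 10 T and NK cell markers (40%) and 2 of 9 B cell markers (22.2%) were higher. Higher too were 1 of 8 erythroid (12.5%), 1 of 15 monocyte and macrophage (6.67%) and 1 of 11 stem and progenitor markers (9.09%). These last counts lie close to the background. The stem and progenitor marker was Meis1, a transduced gene whose probe sets read lower in Hoxa9-Meis1 leukemias, against the label. In the same comparison 7 of the stem and progenitor markers and 1 of the monocyte and macrophage markers were lower. Ccr3 had a mean within the background range in all 3 groups and Fcer1a in floxed leukemias. Calls of single markers, such as Ccr2, C1qc and Thy1, were lost under 6, 9 and 10 alternatives, and the part of any other cell type in the late neutrophil values was not tested.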

How the data were processed

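RNA of 9 samples was labelled from 100 ng per sample and measured on one-colour Affymetrix mouse arrays. The deposited table holds 1 intensity for each of 45101 probe sets per array, made by the authors with RMA per the submitters' processing notes. The RMA version is not given in the sources used here. It corrects background, makes the arrays' distributions alike and summarises the probes of a set, so a change of most genes one way would be removed. The intensities run from 4.6 to 32082, a linear scale, and log2(intensity + 1) was taken. That understates changes of dim genes slightly. The number of arrays limits the precision.

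The platform annotation gave 1 symbol for 34958 probe sets, several for 932 and none for 9211. All 32 measured members matched RefSeq by gene ID. With limma 3.58.1 (lmFit, eBayes) in R 4.3.3, 1 model with a mean per group was fitted to all 9 arrays and 18194 genes, two-sided, with Benjamini-Hochberg adjustment over all genes, and the script was tested on simulated data. No pair of arrays was a duplicate (smallest mean absolute difference 0.22 log2). The labels do not say that samples came from separate mice, so p-values reflect only how far these samples spread, which may be technical. The labels number the MLL-AF9 replicates, and Hoxa9-Meis1 arrays were numbered in accession order. No batch was given.

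Members and lists were chosen with earlier results of these data known. Members are given on every array if called in deleted versus floxed, among the 12 largest calls against Hoxa9-Meis1 leukemias, or in a role with no call. Olfm4, Cd177, Cybb and Clec4d were given on every array after their values were seen. Companion genes are named if called after deletion or among the 3 largest calls against Hoxa9-Meis1 leukemias. Mpo, Elane, Prtn3, Ctsg, Flt3, Cd34 and the other cell type markers were named after their values were seen. Alternatives were a pseudocount of 32, a filter on genes with a mean log2 under 6, quantile normalization, probe sets averaged per gene, only the 2 groups compared, an intensity trend, the replicate block, and arrays left out.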

Additional observations from a re-analysis of the deposited data

How the results depend on the processing

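Of the 16 gene calls among the late neutrophil genes, 0 changed direction under any alternative. After deletion, 1 gene and not 2 was called higher with a pseudocount of 32, in a fit of the 2 groups alone and with the replicate block, and 2 genes and not 1 were called lower with the replicate block, where Clec4e passed (difference -1.43, limma adjusted p = 0.0395) and Wfdc21 did not (0.0784). Same-numbered deleted and floxed arrays correlated at 0.03, 0.05 and 0.01 in their deviations from the group means, so no shared effect of the numbers was seen and the samples were not treated as pairs, though the labels do not settle this. Under the block 599 of all genes were called and not 1246. In floxed against Hoxa9-Meis1 leukemias, 1 gene and not 2 was called higher with a pseudocount of 32 and with quantile normalization. In deleted against Hoxa9-Meis1 leukemias, 9 genes and not 10 were called higher with a pseudocount of 32, where Hp was lost. With quantile normalization 8 were, where Ltb4r1 and Trem3 were lost. A fit of the 2 groups alone lost Fpr2, Hp and Mcemp1 (limma adjusted p from 0.0534 to 0.0724). Leaving out arrays gave 1 to 3 higher and 1 to 2 lower calls after deletion, 1 to 6 higher and 0 to 1 lower in floxed against Hoxa9-Meis1 leukemias, and 3 to 11 higher and 1 to 2 lower in deleted against Hoxa9-Meis1 leukemias. The medians then ran from 0.14 to 0.54, from -0.01 to 0.36 and from 0.19 to 0.85. Of the members not called, 8 of 29, 12 of 30 and 7 of 21 changed sign under some alternative in the same order of comparisons. The cause of these shifts was not tested.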
